A study of Mus musculus with 11 samples.

Results

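A set of 7 genes of iron and metal handling were followed through ribosome footprints of mouse liver: the hepcidin gene Hamp, the ferritin subunit genes Fth1 and Ftl1, the transferrin receptor gene Tfrc, the ceruloplasmin gene Cp, and the metallothionein genes Mt1 and Mt2. They were taken by Ensembl gene identifier, and all 7 were present among the 22019 genes of the deposited table. In the order given, the identifiers are ENSMUSG00000050440, ENSMUSG00000024661, ENSMUSG00000050708, ENSMUSG00000022797, ENSMUSG00000003617, ENSMUSG00000031765 and ENSMUSG00000031762. Livers of male wild-type (WT) mice on a control chow diet were compared with livers of male WT mice on a High Fat High Sugar (HFHS) diet. The labels name neither age, strain nor time on the diet. Lysates were digested with RNase I, and the RNA stretches shielded by ribosomes were cut from a gel. Fragments of 30 nt are monosome footprints, each from a ribosome that is not stacked against another. Fragments of 60 nt are disome footprints, each from a ribosome together with the neighbour it is stacked against. There were 3 chow and 3 HFHS monosome libraries and 3 chow and 2 HFHS disome libraries, named here by the barcode in their column name. The study's title concerns impaired translation in obesity and aging.

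Hepcidin is a small peptide hormone secreted by hepatocytes that removes the iron exporter ferroportin from cell surfaces and so holds iron inside cells. Its transcription is raised by iron through BMP and SMAD signalling and by inflammation through STAT3. Ferritin stores iron in a shell of heavy chains, which oxidise iron, and light chains. When cell iron is low, iron regulatory proteins block translation of ferritin mRNA and stabilise the mRNA of the transferrin receptor, which brings iron into the cell. Ceruloplasmin is a copper-carrying ferroxidase that the liver secretes. Metallothioneins are small cysteine-rich proteins that bind zinc and copper and are induced by metals.

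Because Hamp carried the clearest values below, the RefSeq sequence of the 250 bases before its start is shown (GRCm38.p6, minus strand, chr7:30944030-30944279, printed 5′ to 3′ along the gene). Capitals mark the BMP response element GGCGCC, whose first base lies 109 bases before the start, and a STAT site of the form TTCNNNGAA, which begins 97 bases before it.
Hamp: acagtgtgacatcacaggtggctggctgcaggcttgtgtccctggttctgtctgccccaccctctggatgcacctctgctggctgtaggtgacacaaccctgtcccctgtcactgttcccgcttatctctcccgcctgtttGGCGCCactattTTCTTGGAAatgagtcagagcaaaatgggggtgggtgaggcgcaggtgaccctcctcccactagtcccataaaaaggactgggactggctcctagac
Searched on both strands, GGCGCC occurred in 9.59% and TTCNNNGAA in 7.02% of 32851 mouse windows of this length. These matches are letters in a sequence, and no binding was measured. Tfrc was the only other member with GGCGCC in its window, and no other member had TTCNNNGAA. The metal response element core TGCNCNC was found 5 times before the start of Mt2 and 1 time before that of Mt1, but also 3 times and 1 time before the listed starts of Tfrc and 2 times before the first listed start of Cp, against at least 1 match in 44.4% of all windows. Matches on opposite strands were counted separately and may overlap. The windows of the listed Tfrc starts overlap, and the match before the second start is also among those before the first. The loop of the iron responsive element, CAGTGN, was looked for along the gene's strand in the 50 bases after each listed start. None of these windows held it for any member, against 7.08% of all windows. An element farther along the transcript would be missed, so its absence from a member's mRNA was not shown.

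The libraries differed in depth, and 1 barcode stood apart. Totals were 795145 to 1612324 counts in monosomes and 147212 to 279331 in disomes. In chow, the AGCTA library correlated with its partners at r = 0.82 and 0.83 in monosomes and at r = 0.79 with each partner in disomes, whereas the other chow pair reached r = 0.98 and 0.96 (log2 CPM over 2156 genes). Levels are in CPM, a gene's counts scaled to 1000000 counts of the library. Fold changes come from edgeR with TMM normalization and are relative to the average gene of each fit. A member was called changed at a Benjamini-Hochberg adjusted p below 0.05 over all genes tested. In whole liver, fewer cells of a type and less RNA per cell cannot be told apart. Nor can the amount of mRNA and the number of ribosomes on it, since only footprints were analysed. The files hold no coding lengths, so levels are not compared between genes and the room for stacked ribosomes on short coding sequences was not analysed.

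Hamp was rich in disomes in both diets, and its disome footprints were lower on the HFHS diet. In chow its monosome levels were 894 (ATCGT), 688 (AGCTA) and 540.3 CPM (CGTAA), while its disome levels were 5257, 5054 and 3913 CPM in the same order of barcodes. In HFHS the monosome levels were 536 (CTAGA), 540.0 (GATCA) and 360 CPM (GCATA), and the disome levels were 2575 (CTAGA) and 2148 CPM (GCATA). Every disome library therefore lay above every monosome library, and both HFHS disome libraries lay below the lowest chow disome library, as they did for 13.8% of genes tested. In monosomes the diets also did not overlap, as in the lower direction for 12.3% of genes, but the highest HFHS library and the lowest chow library were separated by less than the value of a single read.

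The ratio of disome to monosome footprints of Hamp was among the highest of the genes tested. In chow the mean disome level was 4741 ± 725 CPM against 707 ± 177 CPM in monosomes (SD, n = 3 each), a log2 ratio of 2.66 ± 0.18 (SE; edgeR adjusted p = 8.76e-10). Only 20 of the 4713 genes tested had a higher ratio. In HFHS the means were 2361 ± 302 CPM (n = 2) and 479 ± 103 CPM (n = 3), a log2 ratio of 2.19 ± 0.15 (adjusted p = 3.97e-11). Here 101 of 7437 genes had a higher ratio. As background, 44.9% of genes were called in chow (21.6% higher) and 25.1% in HFHS (11.5% higher), in either direction. Disomes lay above monosomes with no overlap of libraries for 28.8% of genes in chow and 30.9% in HFHS. The call for Hamp was made in all 14 alternative fits in chow and all 12 in HFHS. Hamp took 0.391% to 0.526% of all counts in a chow disome library, against 0.0540% to 0.0894% in a chow monosome library.

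Libraries that share a barcode allow a ratio for each pair. Nothing states that equal barcodes mark the same animal, and the footprint classes carry different library prefixes, so a difference between the library series is contained in every ratio. For Hamp the disome CPM was 5.88 (ATCGT), 7.35 (AGCTA) and 7.24 times (CGTAA) the monosome CPM in chow. In HFHS it was 4.80 (CTAGA) and 5.97 times (GCATA). The diets overlapped in this ratio. The median over genes with at least 10 counts in both libraries ran from 1.26 to 1.32, so every pair placed Hamp well above the median gene.

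On the HFHS diet the disome footprints of Hamp fell by 1.02 ± 0.17 on the log2 scale (edgeR adjusted p = 4.04e-07), a 2.03-fold decrease. In this comparison 1.14% of the 2804 genes tested were called lower. With all 11 libraries in 1 fit, which shares the spread between footprint classes, the change was -0.95 and was not called (adjusted p = 0.128). Over 11 alternatives the adjusted p ran from 2.33e-07 to 0.128, and 10 passed the threshold. In monosomes the change was -0.53 ± 0.20 and was not called (adjusted p = 0.184, 1.63% of 6754 genes called lower). It was called without the chow library CGTAA (-0.71, adjusted p = 0.0284) and without the count filter (adjusted p = 0.00683), within a range of 0.00683 to 0.393 over 12 alternatives. The diet effect on disomes minus that on monosomes was -0.41 (95% interval -1.09 to 0.28, edgeR adjusted p = 1), so a larger fall in disomes than in monosomes was not shown. RefSeq lists a protein-coding copy, Hamp2, on the same chromosome, and the sources used here do not say how reads shared by the copies were counted. The values of Hamp may therefore include reads of Hamp2.

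**Figure D1:**
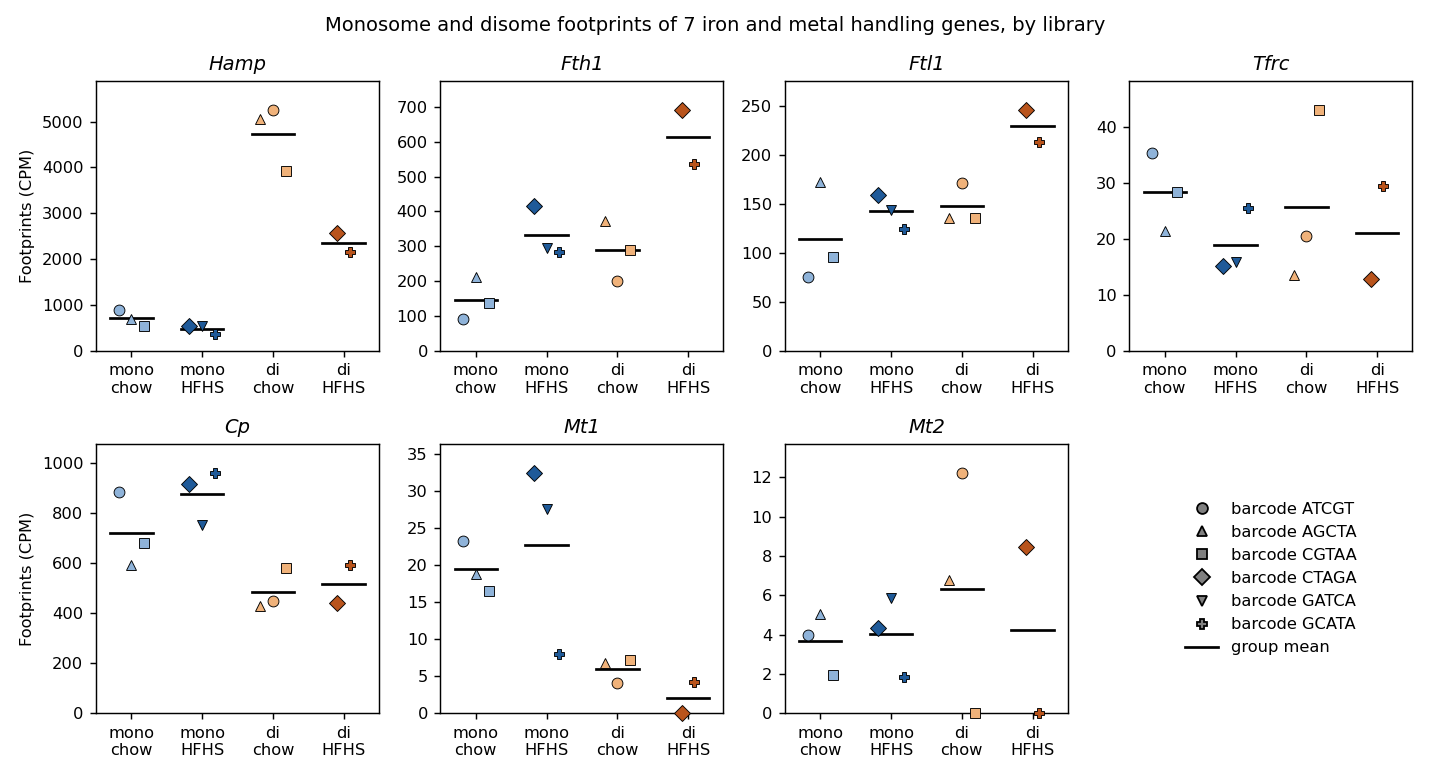
Footprints in CPM (linear axes from 0) for each member in every library. Marker shapes give the barcode, colours the 4 groups and bars the group means. Hamp disomes lie between 3913 and 5257 CPM in chow and between 2148 and 2575 CPM in HFHS, and Fth1 is higher in every HFHS library than in any chow library of its class.

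Fth1, which encodes the ferritin heavy chain, had higher levels in every HFHS library than in any chow library of its class, and the difference was called in disomes. Its monosome levels were 92.1 (ATCGT), 213 (AGCTA) and 136 CPM (CGTAA) in chow, and 416 (CTAGA), 295 (GATCA) and 285 CPM (GCATA) in HFHS. Its disome levels were 200.0 (ATCGT), 374 (AGCTA) and 290.0 CPM (CGTAA) in chow, and 691 (CTAGA) and 536 CPM (GCATA) in HFHS. No overlap in the higher direction was found for 9.77% of genes in monosomes and 14.6% in disomes. AGCTA was the highest chow library in both classes.

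In disomes the Fth1 mean was 288 ± 86.8 CPM for chow (n = 3) and 614 ± 110 CPM for HFHS (n = 2). This rise was 1.11 ± 0.21 on the log2 scale (edgeR adjusted p = 1.7e-05, 1.82% of genes called higher). Of 2804 genes, 23 had a larger log2 fold change. With all 11 libraries fitted together the change was 1.17 and was not called (adjusted p = 0.169), the highest of 11 alternatives that began at 6.25e-05. In monosomes the means were 147 ± 61.0 and 332 ± 72.7 CPM (n = 3 each), with a log2 fold change of 1.23 ± 0.30 that missed the threshold (adjusted p = 0.0744, 3.02% called higher). That call depended on the processing: 7 of 12 alternatives passed, with adjusted p from 1.25e-11 without the count filter to 0.333 without the chow library CGTAA. Without the chow library AGCTA the log2 fold change was 1.60 (adjusted p = 1.8e-05), and without ATCGT it was 0.98 (adjusted p = 0.0355). The diet effects in the classes differed by -0.03 (95% interval -0.97 to 0.91, edgeR adjusted p = 1).

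Ftl1, which encodes the ferritin light chain, showed a smaller difference that was not called in either class. Its chow monosome levels were 75.3 (ATCGT), 172 (AGCTA) and 95.6 CPM (CGTAA), and its HFHS levels were 159 (CTAGA), 144 (GATCA) and 125 CPM (GCATA). The library AGCTA lay above all HFHS libraries, while the other chow libraries lay below all of them. The log2 fold change in monosomes was 0.38 ± 0.29 (edgeR adjusted p = 0.586), and without AGCTA it was 0.79 and called (adjusted p = 0.0122, the lowest of 12 alternatives that reached 0.827). AGCTA is also the chow library least like its partners over all genes, and the part of this in the ferritin values was not tested beyond leaving it out. In disomes Ftl1 had 171 (ATCGT), 136 (AGCTA) and 136 CPM (CGTAA) in chow, and 246 (CTAGA) and 214 CPM (GCATA) in HFHS. The diets did not overlap, as in the higher direction for 14.6% of genes, and the log2 fold change of 0.62 ± 0.25 was not called (adjusted p = 0.191, and 0.16 to 0.603 over 11 alternatives).

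**Figure D2:**
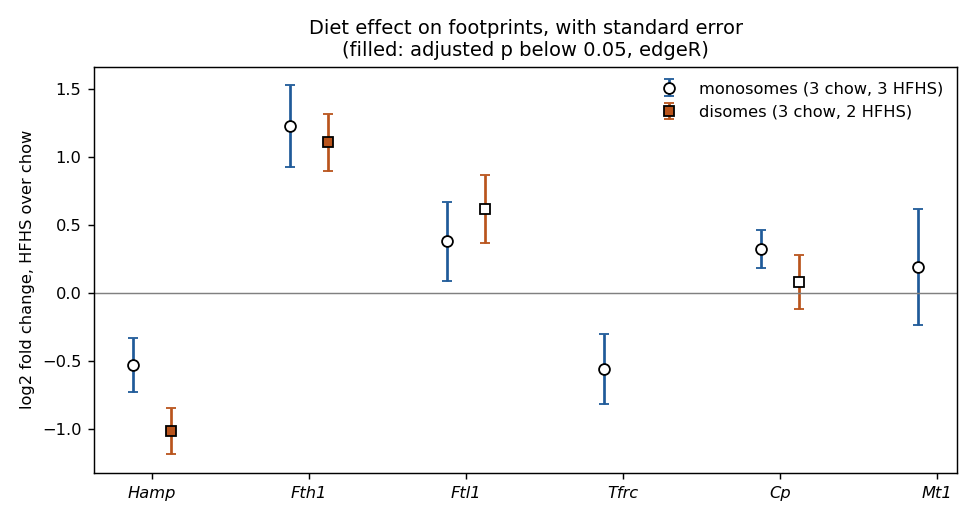
Log2 fold change of HFHS over chow with its standard error, from edgeR, for monosomes (circles) and disomes (squares). Filled symbols passed an adjusted p of 0.05: Fth1 at 1.11 and Hamp at -1.02, both in disomes. Tfrc and Mt1 were not tested in disomes, and Mt2 in neither class.

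The balance of the ferritin subunits can be read within a library, where no scaling between libraries enters. In monosomes there were 0.817 (ATCGT), 0.811 (AGCTA) and 0.705 (CGTAA) Ftl1 counts per Fth1 count in chow, against 0.383 (CTAGA), 0.487 (GATCA) and 0.438 (GCATA) in HFHS. All HFHS libraries lay below all chow libraries, AGCTA included, although that library was high for each subunit. The geometric means were 0.776 in chow and 0.434 in HFHS, a log2 difference of -0.84 (exact permutation p = 0.1, two-sided). With 3 libraries against 3 no smaller p than 0.1 can be reached. Leaving out any library kept the log2 difference between -0.92 and -0.75.

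In disomes the same ratio was spread widely in chow, with 0.857 (ATCGT), 0.364 (AGCTA) and 0.469 (CGTAA), and was 0.356 (CTAGA) and 0.398 (GCATA) in HFHS. The chow disome libraries held as few as 20 Ftl1 counts. The diets overlapped, with a log2 difference of -0.48 (exact permutation p = 0.4). It ran from -0.75 without the chow library AGCTA to -0.13 without ATCGT. Between the footprint classes the log2 difference was -0.56 in chow (exact permutation p = 0.4) and -0.20 in HFHS (exact permutation p = 0.3). Over the 5 ratio tests run on unaltered counts, every adjusted p was at least 0.5. In chow the difference was -0.29 without the disome library AGCTA and -0.91 without ATCGT.

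**Figure D3:**
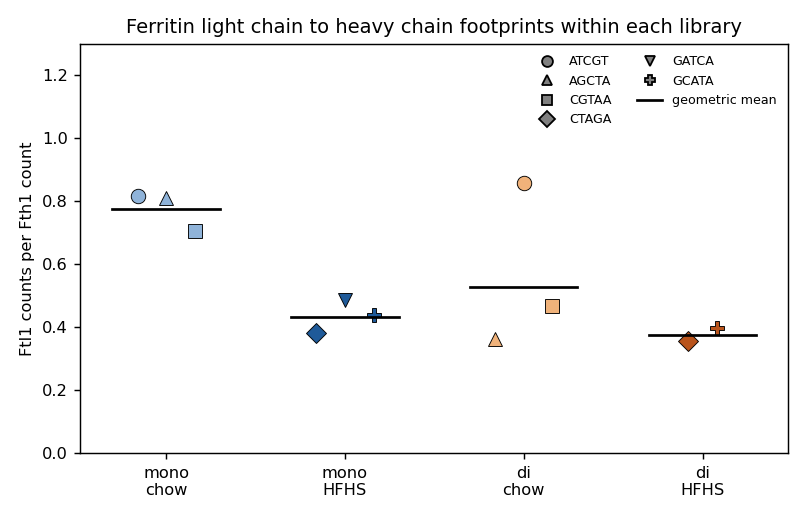
Ftl1 counts per Fth1 count in each library (linear axis from 0), with bars at the geometric mean of each group. Chow monosome libraries lie between 0.705 and 0.817 and HFHS monosome libraries between 0.383 and 0.487, while chow disome libraries spread from 0.364 to 0.857.

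Relative to the average gene, the ferritin genes carried somewhat more disomes than monosomes, a difference that was called in HFHS. In HFHS the log2 ratio of disomes to monosomes was 0.77 ± 0.17 for Fth1 (edgeR adjusted p = 0.00144) and 0.57 ± 0.20 for Ftl1 (adjusted p = 0.0335), where 11.5% of genes were called higher. The higher direction without overlap of the libraries, which both showed, was found for 30.9% of genes. Of the genes tested, 80.9% had a lower ratio than Fth1 and 74.9% a lower one than Ftl1, so neither stood at the edge of the distribution. Fth1 was not called without the disome library CTAGA (0.57, adjusted p = 0.0956) or with all libraries in 1 fit (adjusted p = 0.0948), within 4.37e-07 to 0.0956 over 12 alternatives. Ftl1 passed in 6 of 12 alternatives (adjusted p from 0.00641 to 0.252) and was not called without the disome libraries CTAGA (0.47) or GCATA (0.63), or without the monosome library GCATA (0.52). In chow the ratios were 0.87 ± 0.38 for Fth1 (adjusted p = 0.112) and 0.32 ± 0.31 for Ftl1 (adjusted p = 0.434), neither called. In same-barcode chow pairs the Ftl1 disome CPM was 2.28 (ATCGT), 0.789 (AGCTA) and 1.42 times (CGTAA) the monosome CPM. The AGCTA value lay below the median gene of that pair (1.27), and the others lay above theirs. With the barcode as a block, which pairs same-barcode libraries, Fth1 was called in chow (0.92, adjusted p = 4.24e-08) and Ftl1 was not (0.41, adjusted p = 0.0632). Without the chow monosome library AGCTA and with no block both were called, at 1.19 (adjusted p = 7.04e-05) and 0.68 (adjusted p = 0.0181). The alternatives ran from 4.24e-08 to 0.318 for Fth1 and from 0.0181 to 0.944 for Ftl1. RefSeq lists ferritin pseudogenes (Fth-ps2, Fth-ps3, Ftl1-ps1, Ftl1-ps2 and Ftl2-ps), and the sources used here do not say how reads they share with Fth1 and Ftl1 were treated.

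Tfrc, the receptor that takes up transferrin-bound iron, had few footprints and no call in any comparison. Chow monosome libraries held 44 (ATCGT), 17 (AGCTA) and 29 (CGTAA) counts, and HFHS ones 21 (CTAGA), 19 (GATCA) and 41 (GCATA) in HFHS. These are 28.3 ± 6.93 and 18.8 ± 5.73 CPM (SD, n = 3 each), and the diets overlapped. The log2 fold change was -0.56 ± 0.26 (edgeR adjusted p = 0.265, and 0.125 to 0.617 over 11 alternatives). Disome counts were 2 to 12 in chow and 3 and 7 in HFHS, too few to enter the diet test. The log2 ratio of disomes to monosomes was -0.14 ± 0.39 in chow and 0.02 ± 0.52 in HFHS (adjusted p = 0.794 and 0.985), which leaves 95% intervals of -0.93 to 0.65 and -1.05 to 1.08.

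Cp carried fewer disomes than its monosome level in both diets, the opposite side of the distribution from Hamp. Its monosome levels were 883 (ATCGT), 595 (AGCTA) and 680 CPM (CGTAA) in chow, and its disome levels were 449, 428 and 580.0 CPM in the same order. In HFHS the monosome levels were 917 (CTAGA), 752 (GATCA) and 962 CPM (GCATA), and the disome levels were 441 (CTAGA) and 595 CPM (GCATA). No disome library reached the lowest monosome library of its diet, as was so for 25.2% of genes in chow and 27.7% in HFHS.

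The log2 ratio for Cp was -0.65 ± 0.16 in chow (edgeR adjusted p = 0.000815, 23.3% of genes called lower) and -0.88 ± 0.17 in HFHS (adjusted p = 0.000193, 13.6% called lower). It was called in all 14 alternatives in chow and all 12 in HFHS. Of the genes tested, 26% had a lower ratio in chow and 22.9% in HFHS. The diets overlapped in both classes. In monosomes the log2 fold change was 0.32 ± 0.14 (adjusted p = 0.249), and it was called without the chow library ATCGT (0.51, adjusted p = 0.0295, the lowest of 12 alternatives that reached 0.583). In disomes it was 0.08 ± 0.20 (adjusted p = 0.929).

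**Figure D4:**
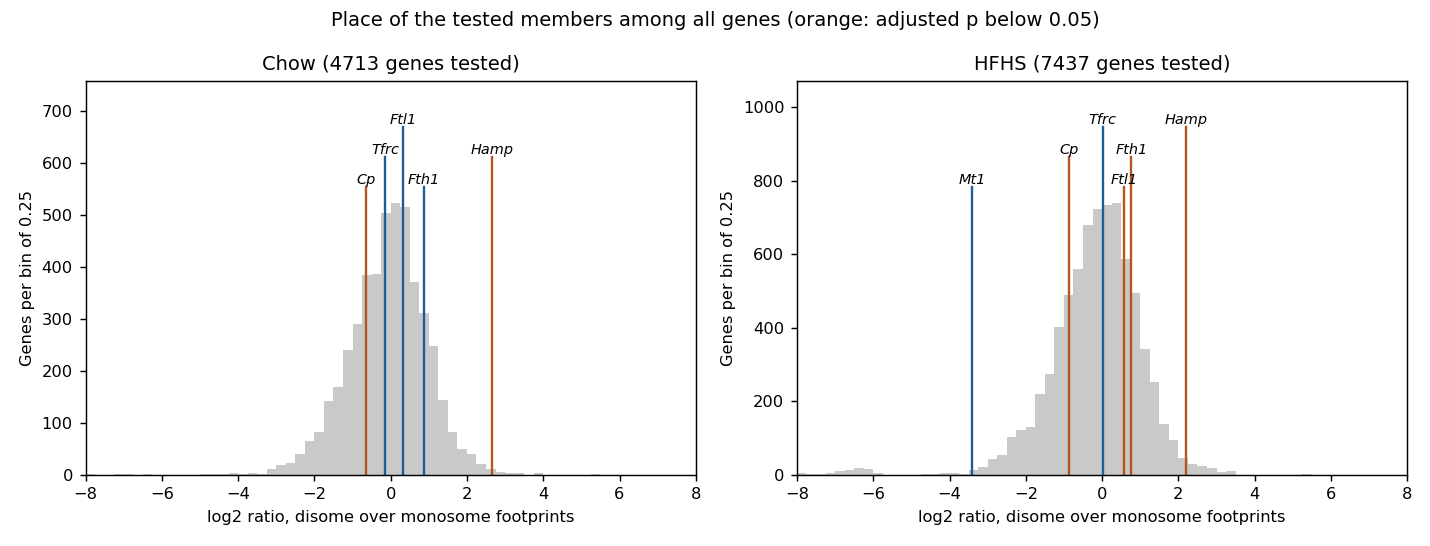
Distribution of the log2 ratio of disome to monosome footprints over all genes tested in chow and in HFHS, in bins of 0.25, with the tested members as vertical lines. Values beyond the axis stand in the outermost bins. Hamp lies far to the right at 2.66 and 2.19. Cp, left of the median at -0.65 and -0.88, lies within the bulk, as do the ferritin genes and Tfrc. Mt1, tested for this ratio in HFHS only, lies far to the left at -3.41 and was not called.

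The metallothioneins were sparsely covered. For Mt1, monosome libraries held 29 (ATCGT), 15 (AGCTA) and 17 counts (CGTAA) in chow and 45 (CTAGA), 33 (GATCA) and 13 counts (GCATA) in HFHS. Its mean was 19.6 ± 3.38 CPM in chow and 22.7 ± 12.9 CPM in HFHS (n = 3 each). HFHS held both the highest library and the lowest, and the log2 fold change was 0.19 ± 0.43 (edgeR adjusted p = 0.891, and 0.238 to 0.991 over the 10 alternatives that gave one). Without the HFHS library GCATA it was 0.65, and without CTAGA it was -0.20.

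Disome footprints of Mt1 were scarce in every library. They came to 1 (ATCGT), 1 (AGCTA) and 2 (CGTAA) counts in chow and to 0 (CTAGA) and 1 (GCATA) in HFHS. Pooled over libraries, the disome share was 0.300 times the monosome share in chow (4 against 61 counts, 95% interval 0.0791 to 0.807) and 0.0971 times in HFHS (1 against 91 counts, 0.00243 to 0.555). These exact intervals cover counting error only and leave out the spread between libraries. Mt1 did not pass the count filter for this ratio in chow. Of 6 alternative fits that tested it there, 4 called it lower, with log2 ratios of -1.64 or lower and adjusted p of 0.0171 to 0.0749 over the 6. The calls came without the filter, with all 11 libraries in 1 fit, and without the disome library AGCTA (-1.90, adjusted p = 0.0301) or both AGCTA libraries. In HFHS it was tested and not called (edgeR adjusted p = 0.172, with 4 of 9 alternatives past the threshold and a range of 0.00183 to 0.588). It was called there without the monosome library GCATA (adjusted p = 0.00249). The disome and monosome libraries of Mt1 did not overlap in either diet. In the lower direction this held for 25.2% of genes in chow and 27.7% in HFHS. The chow share covers only genes that passed the count filter, which Mt1 did not. In HFHS the highest disome library (4.19 CPM) and the lowest monosome library (8.06 CPM) were separated by less than 1 disome count.

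Mt2 had 2 to 5 monosome counts in chow and 3 to 7 in HFHS, and 0 to 3 disome counts in any library. It did not pass the count filter in any of the 5 comparisons as reported. Alternatives that tested it, most of them without the filter and the others without an HFHS disome library, did not call it. In the libraries with no Mt2 count, 3 counts would correspond to 10.7 CPM (chow disomes, CGTAA) and 12.6 CPM (HFHS disomes, GCATA), above the monosome levels of 3.66 ± 1.57 CPM in chow and 4.02 ± 2.01 CPM in HFHS. The pooled disome share was 1.66 times the monosome share in chow (4 against 11 counts, 95% interval 0.386 to 5.61), so no difference was detectable at this depth. Mt2 counts per Mt1 count in monosomes were 0.172 (ATCGT), 0.267 (AGCTA) and 0.118 (CGTAA) in chow and 0.133 (CTAGA), 0.212 (GATCA) and 0.231 (GCATA) in HFHS. The diets overlapped (log2 difference 0.09, exact permutation p = 0.9).

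Across the members, the counts of calls were small and differed by comparison. For the diet, 0 of 6 members tested were called in monosomes with edgeR, against 4.65% of all genes. Of these members 4 had an unadjusted p below 0.05, as did 16.9% of all genes, and DESeq2 called 1 member and 3.06% of all genes. In disomes 2 of 4 tested were called, Fth1 higher and Hamp lower, against 2.96% of all genes. A minimum count of 50, which all 4 passed, gave the same 2 calls, with 38 of 760 genes called higher and 22 lower. The median change over the tested members was 0.25 (log2) in monosomes, beside -0.02 over all genes, and 0.35 in disomes, beside -0.03. For the ratio of disomes to monosomes, 2 of 5 members tested were called in chow, against 44.9% of all genes, which is no more than the background. In HFHS it was 4 of 6, against 25.1%, with Hamp and Cp in opposite directions in each diet. In the model of all libraries, 0 of 6 members tested had a diet effect that differed between the classes, by edgeR or DESeq2. In the reported edgeR fit none of them had an unadjusted p below 0.05. Hamp fell below it in some alternatives, such as the barcode as a block (edgeR unadjusted p = 0.0345, adjusted p = 0.944). Of all 7236 genes edgeR called 0%, with 358 at an unadjusted p below 0.05, and DESeq2 called 0. With the barcode as a block, 7 genes were called lower, none of them a member.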

How the data were processed

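The authors deposited raw, unscaled counts of footprints on coding sequences: 11 libraries by 22019 genes, of which 8319 were 0 throughout. Per the labels' protocols, 200 mg of liver was lysed, 10 µg of RNA was size-selected, and adaptors carried a sample barcode and a molecular identifier of 8 nt. Bowtie2 and cutadapt 3.5 are listed in the submitters' processing notes. Genome build, strand setting and use of molecular identifiers: not given in the sources used here. Column names give class, diet and barcode but no replicate number, so columns were placed in groups; the HFHS columns are marked HFD. HFHS disome replicate 2 was not analysed here. Nothing states that replicates came from separate animals, so p-values measure only how these samples spread, which may be technical.

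Tests used edgeR 4.0.16 under R 4.3.3: genes passing filterByExpr (minimum count 10), TMM scaling, and a two-sided quasi-likelihood F-test with robust estimation. The SE is the log2 fold change divided by the square root of F. The fits were tested on simulated data with the same spread set for all genes, which may differ from the real spread. For the diet, 2-fold changes were called for 15% of changed genes in monosomes, 11% in disomes and 3% for the difference of effects. At 4-fold the shares were 92%, 69% and 22%. For the ratio they were 16% in chow and 4% in HFHS at 2-fold, and 73% and 48% at 4-fold. The absence of a call therefore says little about changes of 2-fold or smaller. For the difference of effects and the HFHS ratio it also says little about 4-fold changes. Alternatives were DESeq2 1.42.0, library totals only, no filter, a minimum count of 50, no robust estimation, all 11 libraries in 1 fit, each library left out, the barcode as a block and, added later, both AGCTA libraries left out. Count ratios were tested by exact permutation, with 0.5 added to each count as an alternative. The ratio tests in disomes by diet and in HFHS by class were added after the files were read, as were the searches for GGCGCC, TTCNNNGAA and TGACNNNGC.

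The members, lists and tests were chosen with earlier results of these data known. All members are named, whatever their values, and their names are those given with the identifiers. The files do not pair identifiers with names: 0 identifiers matched the RefSeq table (GRCm38.p6, 49997 genes), while 7 of 7 symbols did. A wider list of iron genes and the lists of cell type markers, liver markers included, were therefore not analysed here, and proteins are not printed. An antioxidant element search, TGACNNNGC (both strands, 10.2% of windows), matched Mt2 alone.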

Additional observations from a re-analysis of the deposited data

How the results depend on the processing

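Depth limited the low genes: 3 counts correspond to 10.7 to 20.4 CPM in a disome library and to 1.86 to 3.77 CPM in a monosome library. The number of members called for the diet in monosomes (0) was 1 with DESeq2, with a minimum count of 50, without robust estimation and with all 11 libraries in 1 fit, 2 without the filter, and 0 to 2 when libraries were left out. In disomes it was 2, and 0 with all libraries in 1 fit; the cause was not tested. For the ratio in chow it was 2, against 4 without the filter, 5 without both AGCTA libraries, and 2 to 4 with libraries left out. It was 3 with DESeq2, without robust estimation, with all 11 libraries in 1 fit and with the barcode as a block. Among the HFHS alternatives the count was 3 with DESeq2 and with all 11 libraries in 1 fit, and 5 with the barcode as a block. In HFHS it was 4, and 2 to 4 with libraries left out. The difference of diet effects gave 0 in all 18 alternatives.

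With no library left out in turn, 153 member values kept direction and call, 15 gained the call, 6 lost it and 3 changed sign: the difference for Ftl1 (-0.12 without both AGCTA libraries) and the HFHS ratio of Tfrc (-0.12 without the filter, -0.06 with the barcode as a block). With a library left out, values that changed sign ran from -0.20 to 0.65 (diet in monosomes, Mt1), from -0.15 to 0.31 (diet in disomes, Cp), from -0.40 to 0.19 (difference, Fth1), from -0.08 to 0.54 (Ftl1), from -0.54 to 0.81 (Tfrc) and from -0.43 to 0.05 (Cp), from -0.78 to 0.01 (ratio in chow, Tfrc), from -0.75 to 0.49 (ratio in HFHS, Tfrc), and from -0.20 to 0.39 (Mt2 to Mt1 by diet). None of these was called in the reported fit. The Mt2 to Mt1 ratio by class had no value on unaltered counts of all libraries, since some held 0. With 0.5 added it was 1.97 (log2, exact permutation p = 0.2) in chow and 2.67 (exact permutation p = 0.1) in HFHS, from 0 to 3 disome counts per gene and library, and 3.30 (exact permutation p = 0.1) in chow without the disome library CGTAA.

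Columns carry no replicate number, so the labels' numbers could not be used for pairing. Same-barcode libraries deviated together at r = 0.69, 0.86 and 0.70 in chow but at 0.09 and 0.29 in HFHS. Among different barcodes, ATCGT and CGTAA deviated together too (r = 0.56), AGCTA opposed both (-0.76 to -0.71), and in HFHS the highest value was 0.14. Deviations were taken from the group mean and cancel within a group, so these values depend on one another. With only 2 HFHS disome libraries, the deviations of one mirror those of the other. The signs therefore do not decide whether equal barcodes mark pairs. With the barcode as a replicate block, 0 members and 7 of 7236 genes differed between classes in diet effect, and the ratio was called for Fth1 in chow (0.92, adjusted p = 4.24e-08) and for Mt1 in HFHS (-3.30, adjusted p = 0.0076); the block removed no call.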

Other observations

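Genes whose footprints followed a member most closely were ranked by Pearson correlation of log2(CPM + 1), centred within footprint class, over the 11 libraries and among 2051 genes with at least 50 CPM in monosomes and 20 CPM in disomes. These libraries share diets and barcodes, so the values are descriptions. For Fth1 the nearest genes were ENSMUSG00000059743 (r = 0.97) and ENSMUSG00000009633 (r = 0.96), and Ftl1 stood at rank 50 (r = 0.79). Seen from Ftl1, Fth1 stood at rank 9. For Hamp the nearest were ENSMUSG00000058135 (r = 0.91) and ENSMUSG00000049580 (r = 0.88), while Fth1 lay at r = -0.72 and Ftl1 at r = -0.54.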
